A study of Rattus norvegicus with 36 samples.

Results

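The genes described here are 52 members of the cytoplasmic protein synthesis machinery measured in rat kidney after acute injury, of 6394 gene symbols on the array. They were taken by symbol alone: every gene whose symbol in the platform annotation starts with Rpl, Rps (followed by a digit, p, x or a, and without the Rps6k kinases), Eif or Eef. They comprise 26 ribosomal proteins, 13 of the large and 13 of the small subunit, and 26 initiation and elongation factors or their regulators. They have 58 probes, and for the 6 genes with 2 probes the brighter one stands for the gene.

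Ribosomal proteins assemble with ribosomal RNA into the subunits that translate messenger RNA. Initiation factors bring the initiator tRNA and the capped messenger to the small subunit: eIF2, recharged by eIF2B, carries the tRNA, the cap-binding eIF4E finds the messenger, and 4E-binding proteins hold eIF4E back. Under stress, eIF2 kinases phosphorylate the alpha subunit of eIF2 and so lower general translation, while ribosomal protein messengers are known for a pyrimidine tract at their 5′ end that ties their translation to mTOR. In the kidney, injured tubule cells repair and regrow after acute renal failure, which requires protein synthesis.

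The study measured total RNA from the kidneys of 31 male rats, 6 to 8 weeks old, on 36 single-colour CodeLink oligonucleotide arrays of 9911 probes. Treated groups were 40 min of bilateral kidney ischemia with 2 h of reperfusion (4 rats), the same with αMSH, that is alpha melanocyte-stimulating hormone, a peptide that dampens inflammation, at 50 µg per rat intravenously (3 rats), 40 min of ischemia with 8 h of reperfusion (3 rats), 4 mg/kg of subcutaneous mercuric chloride, a tubule toxin, at 2 h (3 rats) and at 8 h (3 rats), and 20 mg/kg of intraperitoneal cisplatin, a nephrotoxic drug, at 2 h (3 rats). Groups that the study used as procedure controls were 40 min of sham surgery with harvest at 8 h (3 rats) and volume depletion by furosemide, a diuretic, at 20 mg/kg at 0 and 8 h with a sodium-deficient diet to 24 h (4 rats). They were set against 5 untreated normal rats. Arrays came in 2 lots of 24 and 12 arrays. Mercuric chloride at 8 h, cisplatin and sham were set against normal rats 11 and 12, and all other groups against normal rats 1 to 3. Of 5 rats, 2 arrays each were made from separate RNA aliquots, and these were averaged so that the rat is the unit. Levels below are multiples of the median intensity of the array, and changes are log2 differences from the normal rats of the same lot.

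Defining kidney markers were present in every rat: the proximal tubule endocytic receptor Lrp2 at 21.5 to 66.1 times the array median, Aqp1 at 12.6 to 36.8, the loop transporter Slc12a1 at 6.89 to 44.2 and the collecting duct channel Aqp2 at 5.61 to 25.9. Of the leukocyte markers, Ptprc lay at 0.358 to 0.751 and Csf1r at 0.991 to 2.42 times the array median. The endothelial marker Pecam1 lay at 4.46 to 10.5. The column of sham rat 3 was displaced by 2 lines against the probe list. As deposited it correlated with the other arrays at 0.0652, and after moving it back at 0.984, so it was moved. Of the arrays, 3 stood apart. That of ischemia 8 h rat 3 had 1.65% of its probes at or below the floor of 0.1 array medians, where all 36 arrays ranged up to 12.91%, and its correlation with the others was 0.916. That of normal rat 1 correlated at 0.979, below 0.988 to 0.989 for normal rats 2 and 3, and the first of volume depletion rat 1 at 0.973, below 0.986 to 0.989 for the other arrays of that group. Against normal rats, values without ischemia 8 h rat 3 are given where a called difference moves by more than 1.5 times or the call changes. Counts are also given without all 3 arrays. Differences of single genes between ischemia 8 h and the other treated or sham groups are given with rat 3 included. No member fell to the floor in any rat.

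The start regions of the genes are shown first because a pyrimidine tract at the start is the sequence by which ribosomal protein messengers are known. RefSeq start windows of the GRCr8 build were found for 46 of the 52 genes, 23 ribosomal proteins and 23 factors. A run of at least 7 uninterrupted pyrimidines that touched the 10 bases either side of the annotated start was present in 20 of the 23 ribosomal protein windows (87.0%). It was present in 5 of the 23 factor windows (21.7%) and in 5379 of 27457 windows of all annotated genes (19.6%). The 60 bases around the start are printed for ribosomal proteins that changed most and for factors with and without a run. Rps6 is added as one of 3 ribosomal protein windows without a run in the searched range. Base 31 is the annotated start, and capitals mark the run.
Rpl28, chr1:78083503-78083562, minus strand: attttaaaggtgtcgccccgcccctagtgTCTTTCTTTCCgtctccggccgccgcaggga
Rpl12, chr3:36661910-36661969, plus strand: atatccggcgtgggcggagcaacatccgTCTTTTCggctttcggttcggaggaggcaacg
Rpl10a, chr20:6390503-6390562, plus strand: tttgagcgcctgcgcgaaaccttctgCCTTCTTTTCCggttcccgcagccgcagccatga
Rps9, chr1:74430408-74430467, minus strand: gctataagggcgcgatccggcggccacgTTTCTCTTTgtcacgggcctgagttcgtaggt
Rps27, chr2:177964577-177964636, minus strand: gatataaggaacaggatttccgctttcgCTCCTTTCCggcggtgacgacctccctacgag
Rps6, chr5:106420511-106420570, minus strand: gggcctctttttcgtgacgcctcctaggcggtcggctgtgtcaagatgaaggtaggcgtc
Eef1b2, chr9:72074061-72074120, plus strand: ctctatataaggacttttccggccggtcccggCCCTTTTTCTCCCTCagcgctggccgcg
Eif2s1, chr6:103405850-103405909, plus strand: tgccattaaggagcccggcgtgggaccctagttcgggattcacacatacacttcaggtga
Eif2b3, chr5:135728812-135728871, plus strand: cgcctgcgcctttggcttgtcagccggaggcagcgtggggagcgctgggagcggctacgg
In these windows the run spans the start in Rpl28, Rpl12, Rpl10a, Rps9 and Rps27, and lies just after it in Eef1b2, the guanine exchange subunit of the elongation factor eEF1. Rps6, Eif2s1 and Eif2b3 carry none in capitals. The Rps6 line does hold an uninterrupted pyrimidine stretch, cctctttttc, further before the annotated start and outside the searched range. A match describes the letters near an annotated start only.

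Other motifs were searched on both strands of the full 300-base windows: TGATGNAA, the composite element of ATF4, a transcription factor of the integrated stress response, CCGGAAGT of ETS factors, AAAATGGC of YY1 and the E-box CACGTG of Myc and related factors. TGATGNAA was found in 1 of 23 ribosomal protein windows, 1 of 23 factor windows and 3.82% of all windows. The factor was Eif2s2, the beta subunit of eIF2, where the element starts 36 bases before the annotated start. CCGGAAGT occurred in 2 ribosomal protein and 3 factor windows against 4.01% of all, AAAATGGC in 1 and 2 against 1.86%, and CACGTG in 2 and 3 against 6.65%. The whole window of Eif2s2 is shown with TGATGNAA in capitals, since this gene changed at both times after ischemia and after mercuric chloride.
Eif2s2, chr3:163855521-163855820, minus strand: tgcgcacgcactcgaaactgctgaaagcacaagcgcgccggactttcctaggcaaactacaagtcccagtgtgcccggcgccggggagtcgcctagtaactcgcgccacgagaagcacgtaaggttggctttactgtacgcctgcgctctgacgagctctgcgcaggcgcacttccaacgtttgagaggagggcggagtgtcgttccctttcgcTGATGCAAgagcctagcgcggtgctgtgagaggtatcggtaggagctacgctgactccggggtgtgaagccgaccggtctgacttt

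The widest change came 8 h after ischemia. Of the 52 genes, 28 rose and 2 fell against normal rats (limma, Benjamini-Hochberg adjusted p under 0.05 over all 9468 probes tested), a share of 53.8% rising. Fitted on the 6 compared rats alone, 8 rose and none fell. The share of all probes called in that fit is not given here. In the fit on all rats, 41.7% of all probes were called in either direction, 20.8% higher and 20.9% lower. The median difference was 0.38 for the 52 genes and 0.01 for all probes. Among the ribosomal proteins 16 of 26 rose and none fell, with a median of 0.42, and among the factors 12 of 26 rose and 2 fell, with a median of 0.33. In bulk kidney RNA, fewer cells of a type and less RNA per cell cannot be told apart.

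**Figure D1:**
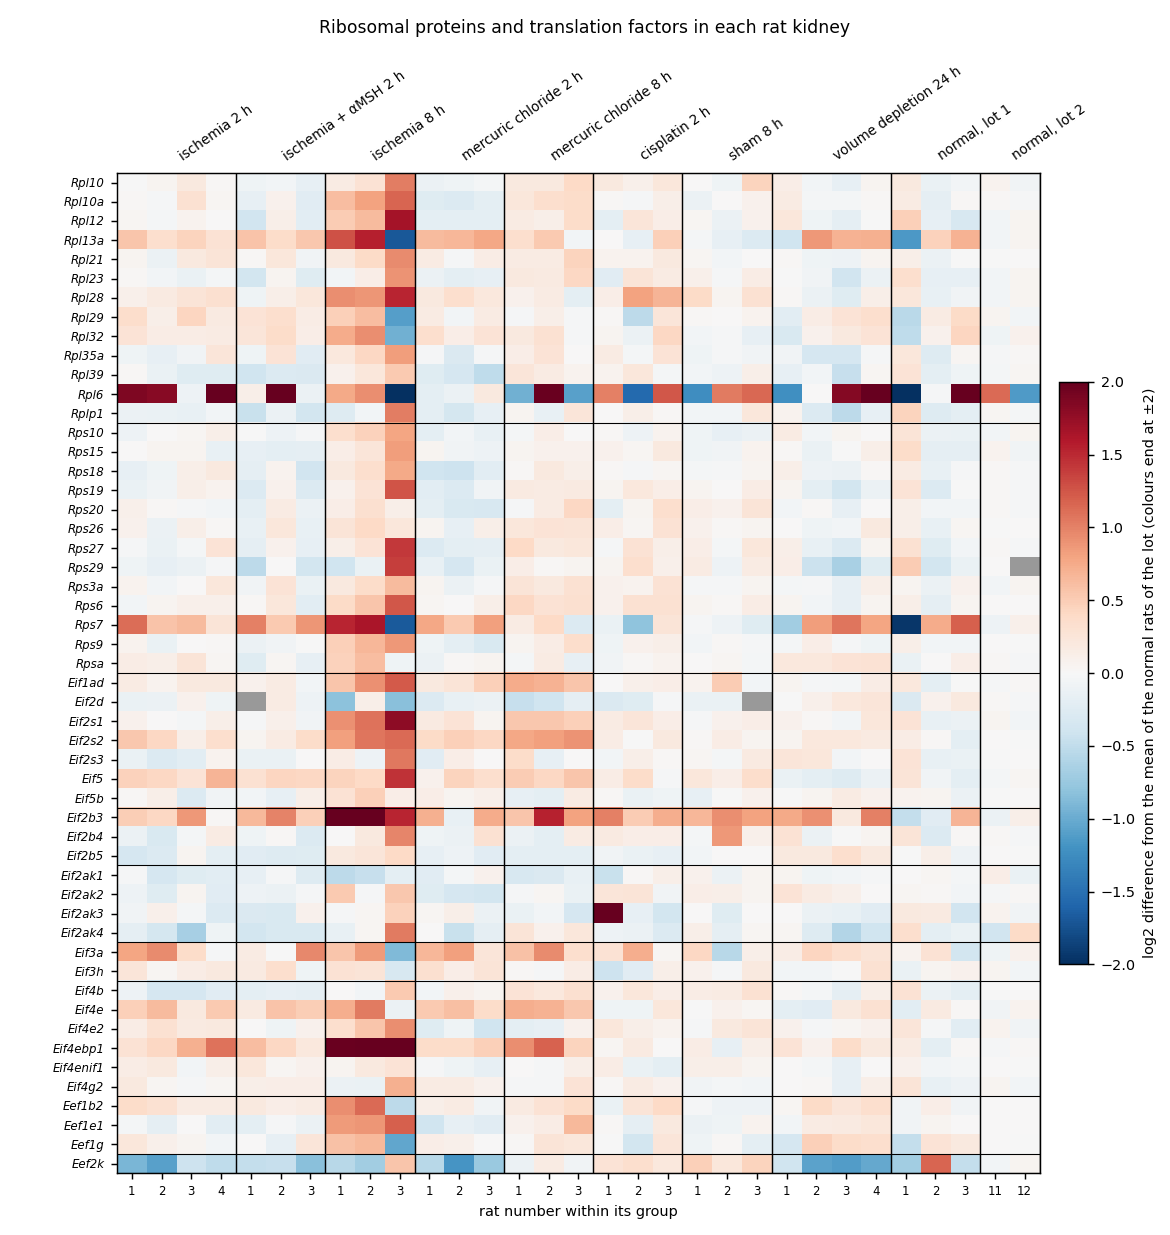
Log2 difference of each of the 52 genes (rows, ordered by role) from the mean of the normal rats of its lot, in each of the 31 rats (columns, by group, with normal rats at the right); grey marks a missing value and colours end at ±2. Ischemia 8 h rats 1 to 3 carry most of the red, with ribosomal protein medians of 0.23, 0.40 and 0.83, and the row of Rpl6 switches between high and low within most groups.

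Of the small subunit proteins 10 of 13 rose, with a median of 0.44, and of the large subunit proteins 6 of 13, with a median of 0.38. The difference between the subunits was not tested. Rpl28, a large subunit protein, had 0.547, 0.527 and 0.820 times the array median in the ischemia 8 h rats, against 0.333, 0.258 and 0.272 in normal rats 1 to 3. The groups did not overlap, and the log2 difference was 1.11 ± 0.17 (SE, n = 3 each, adjusted p = 6.43e-06). The only Rpl28 probe was the dimmest of the ribosomal proteins, at a mean of 0.326 times the array median. The next dimmest, that of Rpl13a, had 2.0. Whether so dim a probe measures the Rpl28 messenger was not tested. Rpl12, at the base of the ribosomal stalk, had 54.3, 59.6 and 121 times the array median after ischemia, against 53.3, 34.1 and 30.5 in normal rats. The lowest injured rat lay just above normal rat 1, and the log2 difference was 0.94 ± 0.21 (SE, adjusted p = 0.000916). Rat 3 was highest, and without it the difference was 0.58 ± 0.17 (adjusted p = 0.0084). Rpl10a, of the L1 stalk, had 32.0, 36.2 and 46.7 times the array median, against 23.2, 18.4 and 21.1 in normal rats. All 3 injured rats lay above all 3 normal rats, with a log2 difference of 0.86 ± 0.12 (SE, adjusted p = 2.71e-06).

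Rps6, the subunit protein that S6 kinases phosphorylate, had 67.9, 77.0 and 123 times the array median 8 h after ischemia, against 56.7, 46.0 and 54.2 in normal rats. It rose by 0.73 ± 0.15 on the log2 scale (SE, adjusted p = 0.000257), and by 0.47 ± 0.11 without rat 3, the highest (adjusted p = 0.0012). Rps9, a core protein of the small subunit, had 51.1, 58.3 and 67.0, against 39.8, 35.4 and 35.7 in normal rats, and rose by 0.66 ± 0.10 on the log2 scale (SE, adjusted p = 8.25e-06). The other 11 ribosomal proteins that rose did so by 0.29 (Rps26) to 0.60 (Rps27) on the log2 scale. Without rat 3, 6 of these were no longer called: Rps27 (0.20), Rps19 (0.18), Rps15 (0.18), Rpl10 (0.23), Rps18 (0.27) and Rpl35a (0.31). Rps27 had 52.0, 58.0 and 127 times the array median in ischemia 8 h rats 1 to 3, against 58.7, 40.6 and 46.0 in normal rats 1 to 3, so that rat 3 alone lay above all normal rats. Rpl21 was 0.29 without rat 3 (adjusted p = 0.0405). Rpsa, also known as the laminin receptor, rose by 0.33 ± 0.13 on the log2 scale (SE, adjusted p = 0.0421), while its 2 groups overlapped, and by 0.53 ± 0.10 without rat 3 (adjusted p = 0.000173).

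The 10 ribosomal proteins that were not called had log2 differences of -0.28 (Rpl6) to 0.49 (Rps7). Rps7 had 4.24, 4.61 and 0.463 times the array median in ischemia 8 h rats 1 to 3, against 0.387, 2.48 and 3.39 in normal rats 1 to 3. Rpl13a had 3.83, 4.65 and 0.492 in the ischemia 8 h rats, against 0.713, 2.19 and 2.56 in normal rats. In both genes ischemia 8 h rat 3 and normal rat 1 were low and the other rats of each group high. Without rat 3, Rpl13a rose by 1.41 ± 0.36 and Rps7 by 1.58 ± 0.57 on the log2 scale (SE, adjusted p = 0.00252 and 0.0267). Rpl32 (0.84) and Rpl29 (0.55) were also called without it. With normal rat 1 and, of volume depletion rat 1, the first array also left out, the log2 differences were 0.83 ± 0.19 for Rpl13a (adjusted p = 0.00079) and 0.61 ± 0.30 for Rps7 (adjusted p = 0.105).

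**Figure D2:**
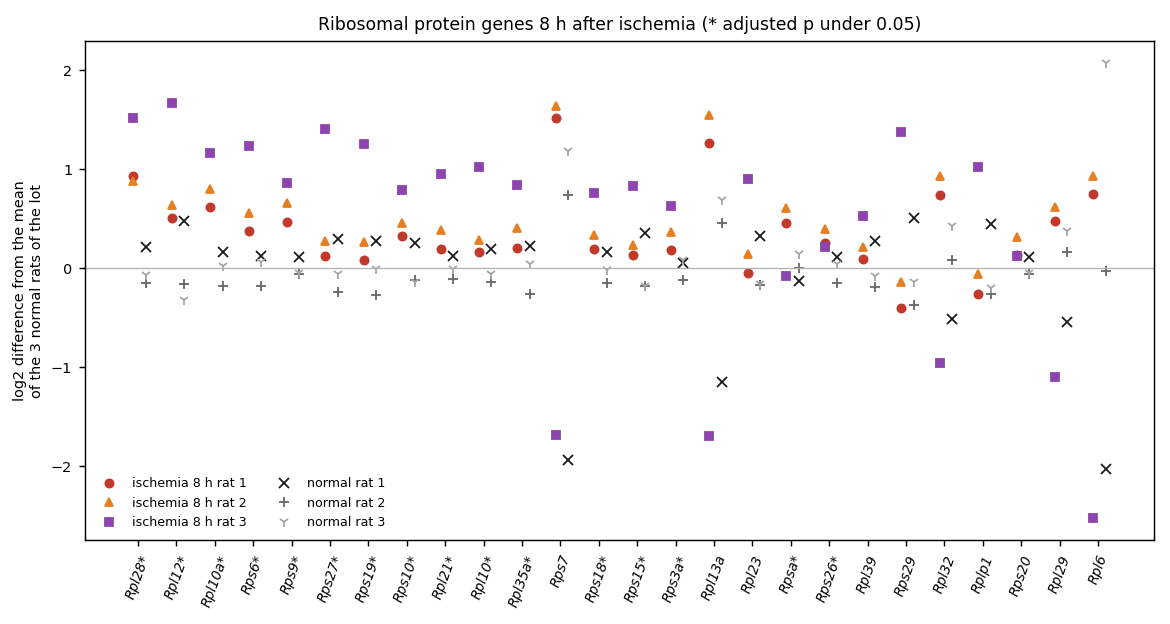
Log2 difference of each ribosomal protein gene from the mean of normal rats 1 to 3, in the 3 rats at 8 h after ischemia (filled symbols) and the 3 normal rats (crosses), ordered by the mean difference; a star marks adjusted p under 0.05. Rat 3 is above the other injured rats for most of the genes, among them Rpl12, Rps27 and Rps29, and far below them for Rps7, Rpl13a, Rpl32, Rpl29 and Rpl6.

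Rats differed within both groups. Medians over the 26 ribosomal proteins were 0.23, 0.40 and 0.83 in ischemia 8 h rats 1 to 3, against 0.17, -0.15 and -0.02 in normal rats 1 to 3. Genes above the mean of the normal rats numbered 23, 24 and 20 in the injured rats, against 20, 4 and 11 in the normal rats, so normal rat 1 came close to ischemia 8 h rat 1 in its median and equalled rat 3 in its count. The spread over the genes (SD) was 1.11 in ischemia 8 h rat 3 and 0.43 and 0.42 in rats 1 and 2. Without rat 3, 14 ribosomal proteins rose with a median of 0.32, and 10 of the 16 were among them. Without rat 3, normal rat 1 and, of volume depletion rat 1, the first array, 17 rose with a median of 0.36, and 15 of the 16 were among them. Without normal rat 2, 8 ribosomal proteins rose. Fitted on the 6 rats of this comparison alone, 2 did. The shares of all probes called in these reduced fits are not given here.

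Markers of cell types moved at the same time, when 20.8% of all probes were called higher and 20.9% lower. Of 11 proximal tubule genes 8 fell 8 h after ischemia and none rose, and their summed level was 282 to 603 times the array median, against 474 to 698 in normal rats 1 to 3. Of 6 distal nephron and collecting duct genes tested 5 fell and none rose, with a summed level of 40.5 to 59.5 over the 7 on the array, against 87.2 to 134 in normal rats. Of 12 leukocyte genes 4 rose and none fell, with a summed level of 60.9 to 82.5, against 53.0 to 71.9 in normal rats. The leukocyte median was 0.04, and the 4 were S100a9, a neutrophil protein (5.02), Cd14, a monocyte receptor (2.00), and the complement genes C1qb (1.83) and C1qa (1.19). Of 7 endothelial genes 1 rose and 3 fell, with a median of -0.30 and a summed level of 18.0 to 28.5, against 20.5 to 23.4 in normal rats. Their part in the changes of the translation genes was not tested.

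Among the factors at 8 h after ischemia, Eif4ebp1 moved most. This gene encodes a repressor that binds eIF4E when mTOR is inactive. It had 2.77, 3.18 and 4.00 times the array median in the ischemia 8 h rats, against 0.790, 0.621 and 0.725 in normal rats. The lowest injured rat was far above the highest normal rat, and the log2 difference was 2.21 ± 0.18 (SE, a 4.63-fold rise, adjusted p = 7e-10). Its partner Eif4e had 8.97, 11.2 and 5.01 after ischemia, against 4.72, 6.16 and 5.59 in normal rats, with rat 3 inside the normal range. Eif4e rose by 0.54 ± 0.20 on the log2 scale (SE, adjusted p = 0.0315), and by 0.88 ± 0.16 without rat 3 (adjusted p = 0.000113). The cap-binding homologue Eif4e2 rose by 0.61 ± 0.13 on the log2 scale (SE, adjusted p = 0.000449), while the helicase cofactor Eif4b, Eif4g2 and Eif4enif1 had differences of 0.16, 0.15 and 0.17 and were not called.

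In the eIF2 group 5 of 7 genes rose. Eif2s1, the alpha subunit that the stress kinases phosphorylate, had 21.8, 24.3 and 39.9 times the array median 8 h after ischemia, against 13.9, 10.4 and 10.6 in normal rats. All injured rats were above all normal rats, with a log2 difference of 1.27 ± 0.15 (SE, adjusted p = 1.91e-07), and of 1.00 ± 0.11 without rat 3. Eif2s2, the beta subunit, had 16.1, 19.1 and 20.0, against 10.1, 9.32 and 7.98 in normal rats, a log2 difference of 1.01 ± 0.11 (SE, adjusted p = 7.37e-08). Eif2s3, the gamma subunit that binds the guanine nucleotide, had a log2 difference of 0.36 ± 0.20 (SE, adjusted p = 0.141) and was not called, so 2 of the 3 subunits passed. Eif1ad, named for its eIF1A-like domain, rose by 0.90 ± 0.14, Eif5, which triggers GTP hydrolysis on eIF2, by 0.76 ± 0.18, and Eif5b, which joins the subunits, by 0.30 ± 0.11 on the log2 scale (SE, adjusted p = 1.45e-05, 0.00148 and 0.0342). Eif5 had 46.7 times the array median in ischemia 8 h rat 3 and 23.3 and 22.6 in rats 1 and 2, against 20.5, 16.4 and 15.0 in normal rats, and its difference was 0.42 without rat 3 (adjusted p = 0.0106).

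Eif2d, which can deliver initiator tRNA without eIF2, fell by 0.52 ± 0.18 on the log2 scale (SE, adjusted p = 0.0215). It had 1.11, 2.11 and 1.10 times the array median after ischemia, against 1.61, 2.08 and 2.26 in normal rats. The value of ischemia 8 h rat 1 averages 2.22 on its first array and 0.558 on its second, and without rat 3 the difference was -0.36 (adjusted p = 0.115).

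For eIF2B, the exchange factor of eIF2, the gamma subunit gene Eif2b3 had 1.49, 1.41 and 0.858 times the array median after ischemia, against 0.215, 0.255 and 0.477 in normal rats. The log2 difference of 2.04 ± 0.30 (SE, adjusted p = 6.11e-06) was the second in size, and it was 2.29 ± 0.32 without rat 3. Eif2b3 also stood above normal rats after sham surgery, without a call. It had 0.568, 0.679 and 0.618 in sham rats, against 0.330 and 0.383 in normal rats 11 and 12. After volume depletion Eif2b3 had 0.505, 0.559, 0.342 and 0.594, which overlapped normal rats 1 to 3, also without a call. Set against the change in sham rats, its difference was 1.24 ± 0.45 and not called (SE, adjusted p = 0.0505). The catalytic epsilon subunit gene Eif2b5 had 1.31, 1.35 and 1.52, against 1.14, 1.25 and 1.07 in normal rats, and rose by 0.28 ± 0.09 on the log2 scale (SE, adjusted p = 0.0165), a call that was lost without rat 3 (0.21, adjusted p = 0.0628). Its second probe had a difference of 0.43 (adjusted p = 0.000723). The delta subunit gene Eif2b4 had a difference of 0.39 ± 0.22 (SE, adjusted p = 0.158).

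The 4 eIF2 kinases did not move together. Eif2ak1, the heme-regulated kinase, had 2.99, 3.12 and 3.75 times the array median 8 h after ischemia, against 4.27, 4.39 and 4.17 in normal rats, and fell by 0.39 ± 0.13 on the log2 scale (SE, adjusted p = 0.0159). Its second, dimmer probe had a difference of -0.13 (adjusted p = 0.486). Eif2ak2, the double-stranded RNA sensor PKR, had 1.63, 1.10 and 1.63, against 1.15, 1.14 and 1.08 in normal rats, and rose by 0.34 ± 0.12 on the log2 scale (SE, adjusted p = 0.0247). Its rat 2 lay inside the normal range, and without rat 3 the difference was 0.25 (adjusted p = 0.11). Eif2ak3, the endoplasmic reticulum kinase PERK, and Eif2ak4, the amino acid sensor GCN2, had differences of 0.16 ± 0.40 and 0.31 ± 0.23 (SE, adjusted p = 0.786 and 0.305).

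Elongation factor genes were few on the array. Eef1e1, which belongs to the multi-tRNA synthetase complex, had 7.92, 8.1 and 10 times the array median 8 h after ischemia, against 4.2, 4.6 and 4.41 in normal rats. It rose by 0.97 ± 0.13 on the log2 scale (SE, adjusted p = 1.34e-06). The eEF1 subunit genes Eef1b2 and Eef1g had differences of 0.52 ± 0.24 and 0.07 ± 0.29 (SE, adjusted p = 0.0872 and 0.88), with rat 3 low in both. Without rat 3 both passed the test, at 1.04 and 0.62. Eef2k, the kinase that inactivates eEF2, had 0.182, 0.166 and 0.393 times the array median, against 0.167, 0.605 and 0.193 in normal rats, a difference of -0.24 ± 0.34 (SE, adjusted p = 0.61). The value of normal rat 2 averages 0.172 on its first array and 2.13 on its second. Eef1a1, Eef2 and Rplp0 are not analysed here.

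**Figure D3:**
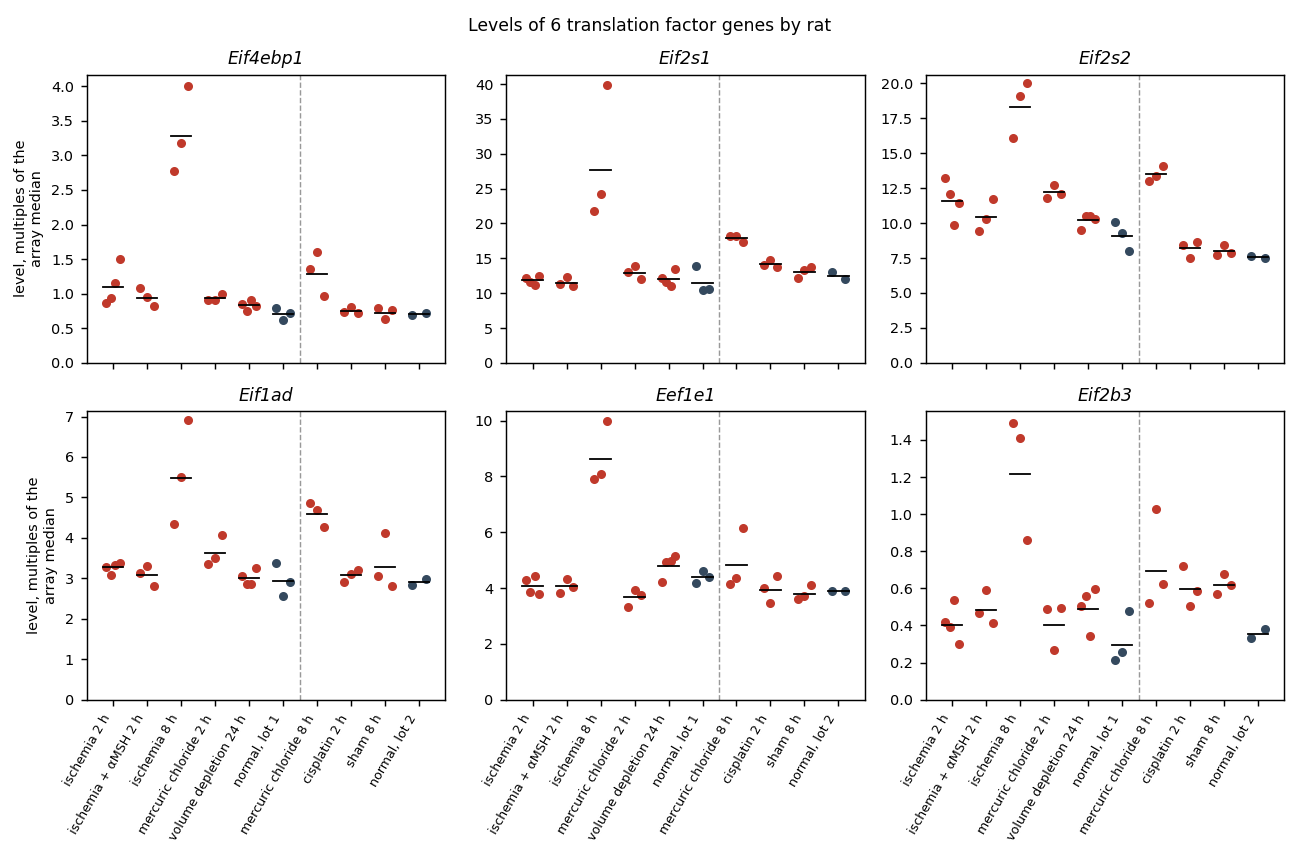
Levels of 6 factor genes in each rat, as multiples of the array median; red points are treated rats, dark points normal rats, bars the geometric mean, and the dashed line parts the lots. Eif4ebp1 stands at 2.77 to 4.00 in the 3 ischemia 8 h rats and at 0.967 to 1.61 in the 3 mercuric chloride 8 h rats.

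At 2 h after ischemia only Eif4ebp1 and Eif2s2 rose and none fell, 3.85% of the 52 genes, where 14.7% of all probes were called (7.36% higher and 7.37% lower). Eif4ebp1 had 0.864, 0.943, 1.16 and 1.5 times the array median, against 0.790, 0.621 and 0.725 in normal rats. All 4 rats lay above the normal rats, with a log2 difference of 0.62 ± 0.17 (SE, n = 4 and 3, adjusted p = 0.0126). Eif2s2 had 13.2, 12.1, 9.87 and 11.4, against 10.1, 9.32 and 7.98 in normal rats, a difference of 0.35 ± 0.10 (SE, adjusted p = 0.0218) with overlap between the groups. Both calls were lost when the fit held the rats of the compared groups alone, which gave 0 genes. The ribosomal proteins had a median difference of 0.03 with none called, and all probes a median of -0.06. Eif2s1, with 12.2, 11.6, 11.2 and 12.5 times the array median, had a log2 difference of 0.04 ± 0.14 (SE, 95% interval -0.24 to 0.33).

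The change from 2 h to 8 h of reperfusion was tested directly. At 8 h 29 of the 52 genes were higher and 1, Eif2d, was lower than at 2 h, where 37.7% of all probes were called (20.5% higher and 17.2% lower). Without ischemia 8 h rat 3, 22 genes were called. Eif2d was called in 10 of 18 alternative analyses. The largest log2 differences were those of Eif2b3 (1.59 ± 0.28), Eif4ebp1 (1.59 ± 0.17), Eif2s1 (1.22 ± 0.14) and Eef1e1 (1.08 ± 0.12; SE, n = 3 and 4, adjusted p = 8.65e-05, 8.89e-08, 2.01e-07 and 1.84e-07). Of the ribosomal proteins 16 of 26 were higher at 8 h. Eif4e had a difference of 0.09 ± 0.19 between the times (SE, adjusted p = 0.74), and at 2 h it stood at 6.23 to 8.51 times the array median, above the 4.72 to 6.16 of normal rats without passing the test (adjusted p = 0.111).

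With αMSH none of the 52 genes was called against normal rats, where 13.3% of all probes were called (6.69% higher and 6.61% lower), and 6 of 52 had an unadjusted p under 0.05. Against ischemia without αMSH at 2 h, limma called none of the 52 genes and none of 9458 probes (0%). At an unadjusted p under 0.05 there were 1 gene, Rpsa, and 342 probes. Rpsa had 29.9, 36.7 and 31.9 times the array median with αMSH, against 39.6, 38.9, 42.7 and 36.7 in ischemia alone, a log2 difference of -0.27 with an interval of -0.51 to -0.02. Eif4ebp1 had 1.08, 0.950 and 0.819 with αMSH, against 0.864, 0.943, 1.16 and 1.5 without, a difference of -0.21 ± 0.17 (SE, 95% interval -0.56 to 0.14). The comparisons with normal rats share their normal rats.

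At 2 h of mercuric chloride Eif2s2 alone rose among the 52 genes (1.92%), where 7.68% of all probes were called, 3.07% higher and 4.61% lower. It had 11.8, 12.7 and 12.1 times the array median, against 10.1, 9.32 and 7.98 in normal rats 1 to 3. The groups did not overlap, with a log2 difference of 0.42 ± 0.11 (SE, n = 3 each, adjusted p = 0.0177). Eif4ebp1 and Eif4e had log2 differences of 0.40 ± 0.18 and 0.49 ± 0.20, above all normal rats but not called (adjusted p = 0.198 and 0.143). The ribosomal protein median was -0.10, against -0.05 for all probes. Ischemia at 2 h differed from mercuric chloride at 2 h in 1 gene, Eif4e2, with 6.39, 7.12, 6.53 and 6.61 times the array median after ischemia and 4.84, 5.45 and 4.35 after mercuric chloride. The log2 difference was 0.45 ± 0.12 (SE, adjusted p = 0.0106), where 15.1% of all probes were called (8.09% higher and 6.98% lower).

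At 8 h of mercuric chloride 4 of 51 genes tested rose and none fell, where 10.9% of all probes were called, 5.27% higher and 5.66% lower. All 4 are initiation genes. Eif4ebp1 had 1.36, 1.61 and 0.967 times the array median, against 0.697 and 0.722 in normal rats 11 and 12. It rose by 0.85 ± 0.20 on the log2 scale (SE, n = 3 and 2, adjusted p = 0.00571). Eif2s2 had 13.0, 13.4 and 14.1, against 7.62 and 7.51 in normal rats, a tight and separate group with a difference of 0.83 ± 0.12 (SE, adjusted p = 4.72e-05).

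Eif1ad had 4.86, 4.69 and 4.26 times the array median at 8 h of mercuric chloride, against 2.84 and 2.98 in normal rats, and rose by 0.66 ± 0.16 on the log2 scale (SE, adjusted p = 0.00637). Eif2s1 had 18.2, 18.2 and 17.4, against 13.0 and 12.0 in normal rats, and rose by 0.52 ± 0.16 (SE, adjusted p = 0.0423). Eif4e had 8.03, 7.78 and 7.02, against 4.62 and 5.06, with a difference of 0.65 ± 0.22 (SE, adjusted p = 0.062). Only 2 normal rats stand behind these values, and without either of them 1 gene was called, Eif2s2. Without ischemia 8 h rat 3, normal rat 1 and 1 array of volume depletion, which enter through the shared spread, 10 genes were called.

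None of 25 ribosomal proteins tested passed at 8 h of mercuric chloride, and 2 had an unadjusted p under 0.05. Their median difference was 0.17, with 23 above 0, and all probes had a median of -0.03. Per-rat medians were 0.16, 0.18 and 0.14 in the 3 treated rats. In the same lot they were -0.01, -0.03 and 0.08 in sham rats and 0.04, 0.06 and 0.19 in cisplatin rats, so that cisplatin rat 3 was as high. Rps6, the ribosomal protein that S6 kinases modify, had 68.0, 62.6 and 64.1 times the array median, against 51.3 and 51.2 in normal rats. Rps29 has no value in normal rat 12 and was not tested here. Proximal tubule markers also fell in this group, 6 of 11, where 5.66% of all probes were lower. Their summed level was 295 to 366, against 474 to 482 in normal rats 11 and 12. Of 12 leukocyte genes 2 rose, S100a9 (3.53) and C1qb (0.96), where 5.27% of all probes were higher. The leukocyte median was 0.38 and the summed level 48.0 to 81.4, against 42.4 to 45.5 in normal rats. The part of these markers in the values of the translation genes was not tested.

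Sham surgery is of the same lot as mercuric chloride at 8 h, and the pair was compared without normal rats. Of 52 genes 5 were higher after mercuric chloride, where 13.2% of all probes were called, 5.91% higher and 7.27% lower. These were Eif4ebp1 (0.82 ± 0.18), Eif2s2 (0.75 ± 0.11), Eif4e (0.61 ± 0.20), Eif1ad (0.49 ± 0.14) and Eif2s1 (0.46 ± 0.15; log2 difference ± SE, n = 3 each, adjusted p = 0.00276, 3.51e-05, 0.042, 0.0222 and 0.0389). Leaving out 1 rat at a time gave 2 to 3 genes.

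Ischemia at 8 h was set against mercuric chloride at 8 h as the difference of each group's change from its own normal rats, since the groups are of different lots. Of 51 genes 8 had the larger change after ischemia and none after mercuric chloride, where 11.8% of all probes were called, 6.78% higher and 5.06% lower. Eif4ebp1 changed by 2.21 after ischemia and 0.85 after mercuric chloride, a difference of 1.36 ± 0.27 (SE, adjusted p = 0.00148). Rpl28, on its dim probe, changed by 1.11 and 0.02, a difference of 1.09 ± 0.25 (SE, adjusted p = 0.00446). Eif2s1 changed by 1.27 and 0.52, a difference of 0.75 ± 0.22 (SE, adjusted p = 0.0276). Over 16 alternative analyses the Eif2s1 difference was as low as 0.48 and was called in 13. Eif4e2, Eef1e1, Rpl10a, Rps9 and Eif2b5 had differences of 0.70, 0.67, 0.55, 0.48 and 0.47. Eif2s2 changed by 1.01 and 0.83 and was not among them, and 3 of 25 ribosomal proteins were. With the rats of these groups and their normal rats alone in the fit, 0 genes passed.

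Against sham at 8 h, handled in the same way, 11 of 51 genes had the larger change after ischemia and none the smaller, where 22.9% of all probes were called, 11.9% higher and 11% lower. They were Eif4ebp1 (2.18), Eif2s1 (1.21), Eef1e1 (1.02), Rpl12 (0.94), Eif2s2 (0.93), Rpl10a (0.87), Rpl28 (0.86), Eif1ad (0.73), Rps9 (0.68), Rps10 (0.66) and Rps6 (0.65), as log2 differences. Over 16 alternative analyses the Rpl12 difference was as low as 0.57 and was called in 10. Sham itself had no gene called of 51 against normal rats (1 at an unadjusted p under 0.05), where 0.351% of all probes were called (0.298% higher and 0.0531% lower).

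Cisplatin at 2 h also had none of 51 called, where 0.574% of all probes were called (0.532% higher and 0.0425% lower), and 2 had an unadjusted p under 0.05. Volume depletion at 24 h had none of 52 called, where 0.169% of all probes were called (0.0739% higher and 0.0951% lower), and 3 had an unadjusted p under 0.05. The ribosomal protein median was 0.11 after cisplatin, 0.00 after sham surgery and -0.01 after volume depletion. Single rats stood out even so. Eif2ak3 had 2.96 times the array median in cisplatin rat 1 and 0.466 and 0.409 in rats 2 and 3, against 0.550 and 0.502 in normal rats 11 and 12.

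Other genes of protein synthesis were counted from pathway lists, to be read against the shares of all probes called: 20.8% higher and 20.9% lower at 8 h after ischemia, and 5.27% higher and 5.66% lower at 8 h of mercuric chloride. Of 22 ribosome biogenesis and RNA polymerase I genes on the array 18 rose 8 h after ischemia and none fell, with a median of 1.19. The largest were Gar1 (1.99), which guides pseudouridylation, Rrp9 (1.97), a processing factor of the U3 particle, and Nop58 (1.86), a core protein of the methylating particles. After 8 h of mercuric chloride 8 of 22 rose, with a median of 0.37, led by Nop58 (1.26), Gar1 (1.07) and Nob1 (0.94), the nuclease that matures the small subunit RNA. The change after ischemia was the larger for 13 of the 22 and the smaller for none in the direct test. At 2 h the counts were 3 up and 2 down after ischemia, where 7.36% of all probes were higher and 7.37% lower, and 3 up after mercuric chloride, where 3.07% were higher.

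Aminoacyl-tRNA synthetases, which charge tRNAs with amino acids, rose after both injuries. At 8 h, 11 of 13 rose after ischemia with a median of 0.97 and 11 of 13 after mercuric chloride with a median of 0.81. Cars1 (1.66), Vars1 (1.46) and Iars1 (1.14) led after ischemia, and Sars1 (1.68), Tars1 (1.37) and Yars1 (1.33) after mercuric chloride. In the direct test at 8 h, Vars1, Rars1 and Hars1 changed more after ischemia and Sars1 more after mercuric chloride. At 2 h, 2 of 13 rose after ischemia, Cars1 (1.11) and Tars1 (0.74), and 6 of 13 after mercuric chloride. In the direct test at 2 h, Sars1 (-0.73), Iars1 (-0.58), Gars1 (-0.41) and Cars1 (-0.41) were lower after ischemia than after mercuric chloride.

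**Figure D4:**
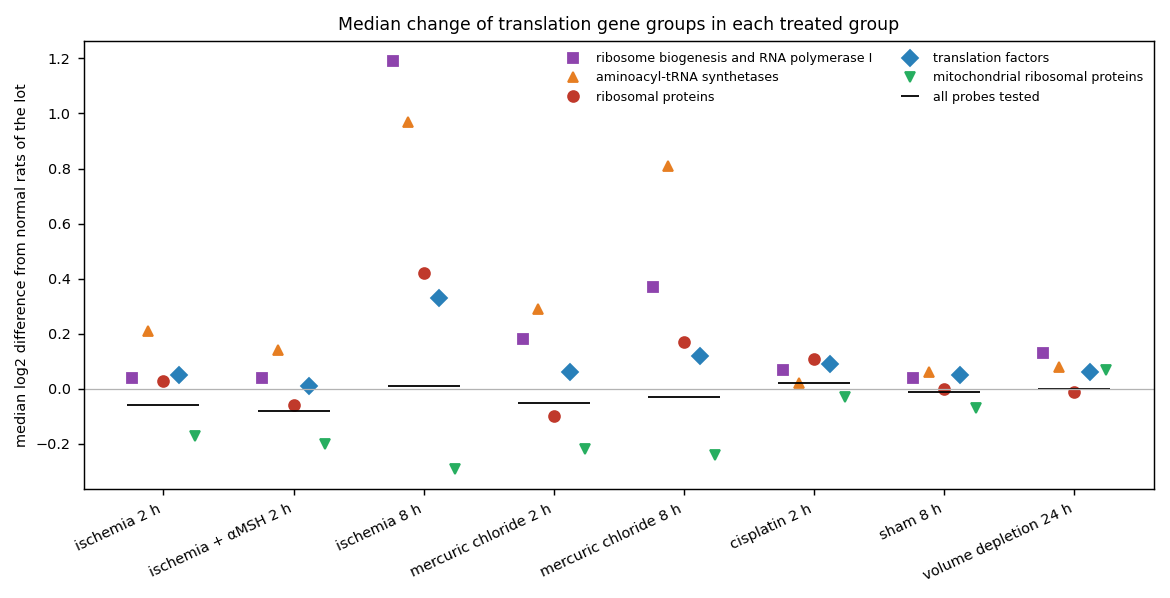
Median log2 difference from the normal rats of the lot for 5 gene groups (symbols) and for all probes tested (bars), in the 8 treated groups. At 8 h after ischemia the medians are 1.19 for ribosome biogenesis, 0.97 for synthetases, 0.42 for ribosomal proteins, 0.33 for translation factors and -0.29 for mitochondrial ribosomal proteins; at 8 h of mercuric chloride they are 0.37, 0.81, 0.17, 0.12 and -0.24.

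Mitochondrial ribosomal proteins form the separate ribosome of mitochondria. Their medians were -0.29 to -0.17 in the groups with ischemia or mercuric chloride, where all probes had medians of -0.08 to 0.01. After sham surgery, cisplatin and volume depletion they were -0.07, -0.03 and 0.07. Of 47 genes 19 fell and 3 rose 8 h after ischemia, with a median of -0.29, and 4 of 46 fell and 1 rose at 8 h of mercuric chloride, with a median of -0.24. The count at 8 h of mercuric chloride is near the 5.66% of all probes that were lower there. The direct test between these groups called none of 46. Mrpl15 (-1.10), Mrpl52 (-1.01) and Mrps18b (0.98) had the largest changes after ischemia.

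Of 4 termination and recycling genes, Pelo (1.38), which rescues stalled ribosomes, Etf1 (1.35), the release factor, and Gspt1 (0.52), its GTPase partner, rose 8 h after ischemia, and Hbs1l (-0.47), the partner of Pelo, fell. At 8 h of mercuric chloride Pelo (0.92) and Etf1 (0.83) rose. Of 9 mTOR and S6 kinase pathway genes Larp1 (0.59), which binds pyrimidine tracts, and Rheb (0.58), the activator of mTOR, rose 8 h after ischemia, and Sesn1 (-1.74), an mTOR inhibitor, fell, counts near or below the shares of all probes. At 8 h of mercuric chloride Larp1 (0.44) rose and Sesn1 (-1.07) fell.

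Of 5 integrated stress response genes on the array 3 rose in each of the 5 groups with ischemia or mercuric chloride. In these groups 3.07% to 20.8% of all probes were higher. After cisplatin 1 of the 5 rose, where 0.532% of all probes were higher, and after sham surgery and volume depletion none did. Chac1, an ATF4 target that degrades glutathione, had log2 differences of 4.09 and 3.15 at 2 and 8 h after ischemia, and of 5.91 and 5.31 at 2 and 8 h of mercuric chloride. Atf3, a stress transcription factor, had 4.17 and 2.61 after ischemia and 3.78 and 3.32 after mercuric chloride, and Ppp1r15a, which directs dephosphorylation of eIF2 alpha, 2.77 and 2.95 after ischemia and 1.32 and 2.26 after mercuric chloride. Myc, a transcription factor of growth genes, had 3.23 and 2.82 after ischemia and 2.46 and 2.53 after mercuric chloride, at 2 and 8 h. The other of the 2 genes tested in the Myc list was called lower 8 h after ischemia. At 2 h Chac1, Atf3, Ppp1r15a and Myc were thus changed while 2 of the 52 translation genes were called after ischemia and 1 after mercuric chloride.

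Rpl6, a large subunit protein, had the largest SE of the 52 genes at 8 h after ischemia. Its levels were 42.3, 41.2, 10.9 and 50.1 times the array median at 2 h after ischemia, 12.7, 53.0 and 10.8 with αMSH, and 9.63, 73.8 and 8.87 at 8 h of mercuric chloride, against 2.85, 11.4 and 48.9 in normal rats 1 to 3 and 41.2 and 8.54 in normal rats 11 and 12. High and low rats occurred in the normal group and in most treated groups. The 2 arrays of a rat were alike, at 18.7 and 20.6 in ischemia 8 h rat 1, 20.0 and 24.6 in ischemia 8 h rat 2, 10.6 and 12.3 in normal rat 2 and 40.7 and 41.7 in normal rat 11, and differed in volume depletion rat 1 (2.84 and 8.86). No group differed from normal by the test, and at 8 h after ischemia the SE of its log2 difference was 1.13, against 0.10 for Rps9.

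**Figure D5:**
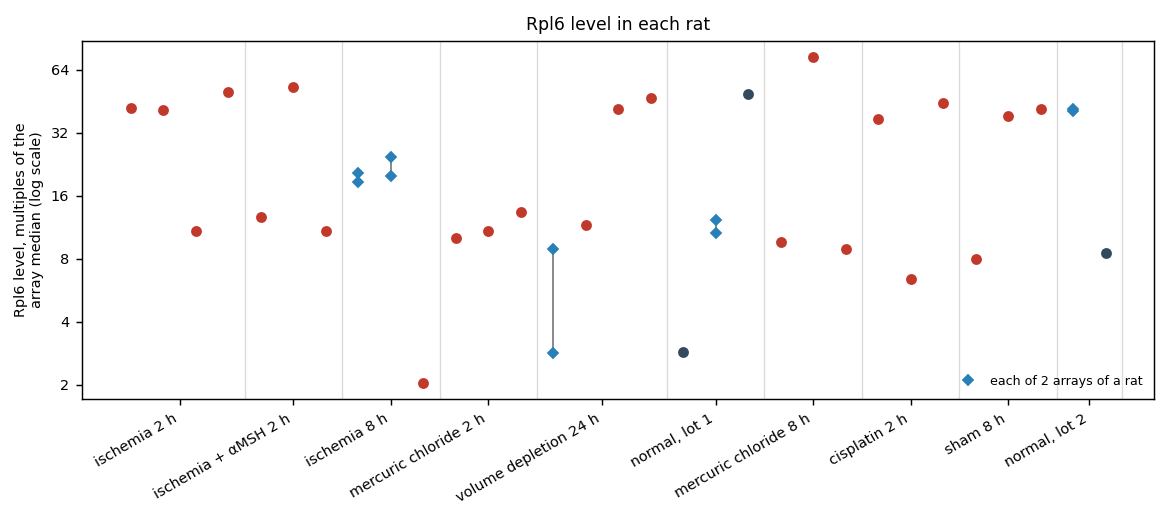
Rpl6 level in each rat, as multiples of the array median on a log axis, by group, with the normal rats of each lot right of their treated groups; red circles are treated rats, dark circles normal rats, and joined diamonds the 2 arrays of 1 rat. Rats near 40 and near 10 occur side by side within groups, and 4 of the 5 pairs of arrays lie close together.

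For the 6 genes with 2 probes, the second probe was compared at 8 h after ischemia. Rps19, with 0.54 on the brighter probe, had 0.80 on the other (adjusted p = 3.38e-05), and Rpsa, with 0.33, had 0.76 (adjusted p = 0.003). Rpl21 and Rpl35a were called on the brighter probe (0.51 and 0.49) and not on the other (0.30 and 0.35, adjusted p = 0.0926 and 0.657). All 6 pairs had the same sign. Ribosomal protein genes have many near-identical processed copies, and a probe may take up their RNA, which was not tested.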

How the data were processed

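Values are those deposited for 36 single-colour CodeLink arrays of kidney RNA from 31 rats. The log2 of a deposited value behaves as a linear intensity, which was read from the deposited values themselves: on that scale the array medians were 0.999 to 1. Neither the labels nor the headers state the background correction, the scaling or the rats' strain. The log2 of each deposited value was taken as the intensity, divided by the array median, floored at 0.1 and put on the log2 scale, with -1 treated as missing (70 to 172 spots per array). The column of sham rat 3 was moved by 2 lines. Arrays of 1 rat were averaged. The lot of each array was taken from the study's assignment of normal rats, and the labels do not give it per sample. Probes were tested with limma 3.58.1 in R 4.3.3, on all rats with group and lot as terms (21 residual degrees of freedom) and Benjamini-Hochberg adjustment over all probes tested, requiring a value in at least 2 of every 3 rats and at least 3 rats above the floor; adjusted p-values in the report come from this fit. The labels name the replicates as separate rats. The number of arrays limits the precision. The code was tested on simulated data.

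Members, lists and tests were chosen with earlier results of these data known. Up to 6 members with the largest rise and fall in each comparison with normal rats, and up to 4 between treated groups, were named, with the eIF2 kinases, Eif4ebp1, Eef2k, Eif2s1, Eif4e and Rpsa, and up to 3 genes of each pathway list; other members named were chosen after their values were seen. Alternatives were quantile scaling, other floors, no filter, the mean of probes, no lot term, first arrays, the compared rats alone, doubted arrays left out, sham rat 3 as deposited, a replicate block and leaving out each rat. Deviations of same-numbered rats had a mean r of 0.007 over 55 pairs, and those of other rats 0.001 over 156 pairs. An r over 0.1 occurred in 21 and 50 of these. No pairing was used in the main fit, though a mean near 0 cannot show that pairing is absent. Of the probes, 7178 have 1 gene symbol, 21 several and 2712 none. No column was left unmapped (0).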

Additional observations from a re-analysis of the deposited data

Results flagged for a closer look

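On 51 sets of values of 4 or 5 rats tested for a rat far from the others, 4 were marked, and chance marks about 1 in 20. Eif2s2 was low in volume depletion rat 1, at 3.24 on the log2 scale, and Eef2k was high there, at -2.29. The 2 arrays of that rat gave Eef2k at 0.308 and 0.136 times the array median, and the first is the array that stood apart. Eef2k was high in normal rat 2, at -0.73, where its 2 arrays gave 0.172 and 2.13 times the array median. Rpl28 was high in normal rat 1, at -1.59. The change differed between 8 h and 2 h after ischemia in 30 of 52 genes, and between ischemia and mercuric chloride at 8 h in 8 of 51, both by a direct test in limma.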

How the results depend on the processing

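Counts below, and those of alternative fits above, are of the 52 genes called. The share of all probes called under each setting is not given here. A move of a count can therefore not be read as particular to these genes. Quantile scaling gave 8 at 8 h of mercuric chloride, 3 for ischemia against mercuric chloride at 2 h, 10 for mercuric chloride against sham and 20 for ischemia 8 h against sham. For ischemia against mercuric chloride at 2 h, a floor of 0.25 gave 3, no filter 3 and the mean of probes 2. With no lot term the counts were 5 for ischemia 2 h, 2 with αMSH, 4 and 7 for mercuric chloride at 2 and 8 h, 1 for cisplatin, and 30 and 19 for ischemia 8 h against sham and mercuric chloride. With only the compared rats they were 0 and 8 for ischemia at 2 and 8 h, 0 for mercuric chloride 2 h, 1 for sham, 10 between the ischemia times, 2 between the injuries at 2 h, and 5 and 0 for ischemia 8 h against sham and mercuric chloride. With sham rat 3 as deposited they were 0 and 7 for ischemia at 2 and 8 h, 0 and 0 for mercuric chloride, 8 between the ischemia times, 0 between the injuries at 2 h, and 4 and 0 for ischemia 8 h against sham and mercuric chloride; Eif1ad in mercuric chloride against sham turned to -0.24. Without the doubted arrays they were 5 for ischemia 2 h, 2 with αMSH, 5 and 10 for mercuric chloride at 2 and 8 h, 1 for volume depletion, 4 between the injuries at 2 h, 10 for mercuric chloride against sham and 21 for ischemia 8 h against sham. The replicate block gave 0 for ischemia 2 h, mercuric chloride 2 h and their comparison, and 22 for ischemia 8 h. Why these counts moved was not tested.

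Leaving out 1 rat gave 1 to 4 for ischemia 2 h, 0 to 1 with αMSH, 20 to 30 for ischemia 8 h, 0 to 1 and 1 to 4 for mercuric chloride at 2 and 8 h, 0 to 1 for cisplatin, 0 to 0 for sham and volume depletion, 22 to 33 between the ischemia times, 0 to 2 between the injuries at 2 h, 2 to 3 for mercuric chloride against sham, and 9 to 16 and 5 to 10 for ischemia 8 h against sham and mercuric chloride. Over all alternatives, values of named genes kept their side of the threshold 2278 times, lost the call 121 times and gained it 35 times. In 1 case the sign turned with a call. The 2278 include values called in neither fit, for which the sign was not checked. Eef2k 8 h after ischemia, for example, ran from -0.97 to 0.35 over the alternatives. Eif4ebp1 8 h after ischemia stayed at 2.07 to 2.33 and was called in 17 of 17.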
